A study of Mus musculus with 6 samples.

Results

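The genes described here act in planar cell polarity and in non-canonical Wnt signalling, and comprise 34 mouse genes chosen by symbol among the 31950 genes measured. They were grouped by role as 8 ligands and receptors, 14 core components, 6 genes of the Fat and Dachsous families and 6 effectors. Planar cell polarity orients cells within the plane of a tissue. Its core proteins, the frizzleds, Dishevelleds, Prickles, Vangls and Celsr cadherins, gather on opposite sides of each cell, and the very large Fat and Dachsous cadherins form a separate system between neighbouring cells. Non-canonical Wnt ligands such as Wnt5a act through Ror, Ryk and frizzled receptors on the cytoskeleton, without beta-catenin, and are known for guiding the migration and shape of mesenchymal cells.

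The cells were mouse embryonic fibroblasts immortalised with SV40 large T antigen, a viral protein that inactivates p53 and the retinoblastoma proteins. All had received Cre recombinase from an adeno-associated virus of serotype AAV8 under the CMV promoter, and each line was grown from a single cell. The 3 knockout clones came from Macf1flox/flox mice, and the 3 het clones, also exposed to the Cre virus, came from Macf1flox/+ mice. The state after Cre, Macf1-/- or Macf1-/+, is given by the protocol for the series and not per clone. Macf1 encodes a spectraplakin that ties actin filaments to microtubules. The labels name no age or strain, nor whether clones of a genotype share an embryo or a parental culture. The p-values therefore set the difference between genotypes against the spread between these clones only. If clones of a genotype share an origin, genotype and origin cannot be told apart.

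Macf1 measured 309, 363 and 322 CPM (read counts brought to 1 library size) in knockout clones 1, 2 and 3, against 693, 696 and 579 CPM in the het clones. It fell by 0.99 on the log2 scale (SE 0.13, adjusted p = 0.0031, edgeR), and the genotypes did not overlap. The exons between the loxP sites are not known here, and a level over the whole gene is therefore no check of the deletion. Estimated counts totalled 16581833 to 18209673 in the knockout and 15661342 to 17614982 in the het clones. Het clone 1 stood somewhat apart, with correlations of log2(CPM + 1) across genes of 0.959 and 0.952 to the other het clones, which correlated at 0.986 with each other. Knockout clones correlated at 0.978 to 0.994 with each other, and clones of different genotypes at 0.892 to 0.907. Of 12 fibroblast markers, 6 were lower and 0 higher in the knockout clones, and 7 stayed above 1 CPM in every clone. Their summed level was 6021 to 8639 CPM in knockout clones and 9707 to 13248 CPM in het clones. The collagen gene Col1a1 measured 2.69 to 13.8 CPM in knockout and 1018 to 1498 CPM in het clones. Lum was at 0 throughout, and Thy1 was at 0 in every clone but het clone 1 (0.0599 CPM). Dcn was at 0 in every knockout clone and at 0.169 to 1.02 CPM in het clones. Vim measured 3607, 3399 and 1595 CPM in knockout clones 1, 2 and 3, against 2819, 2310 and 2146 CPM in the het clones. Fn1 measured 3936 to 4496 CPM in knockout and 5173 to 6356 CPM in het clones. S100a4 measured 401 to 555 CPM in knockout and 684 to 747 CPM in het clones. Col1a2, Col3a1, Pdgfra and Pdgfrb also lay lower in every knockout clone than in any het clone, and Twist1 overlapped between genotypes. Of 6 neural markers 2 were lower, with sums of 14.5 to 19.5 CPM in knockout and 36 to 64.4 CPM in het clones and Olig2 at 0. Epithelial markers summed to 1.11 to 1.5 CPM in knockout and 0.419 to 1.82 CPM in het clones, with 1 of 10 higher. Muscle markers summed to 2.57 to 5.05 CPM in knockout and 1.38 to 2.19 CPM in het clones, with 1 of 5 higher. Immune markers summed to 4.21 to 5.53 CPM in knockout and 3.53 to 6.21 CPM in het clones, with Cd68 at 3.05 to 5.45 CPM across the clones. Endothelial markers summed to 2.63 to 3.21 CPM in knockout and 1.56 to 3.26 CPM in het clones. None of the immune or endothelial markers was called higher or lower. The muscle regulators Myod1 and Myog and the immune markers Adgre1 and Cd3e were at 0. The part of these marker levels in the differences below was not tested.

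Of the 34 genes, 30 passed the filter on low counts. Among these, 6 were higher in the knockout clones, 6 were lower and 18 did not pass an adjusted p of 0.05 (edgeR quasi-likelihood test, adjusted over 12682 genes). The 12 that passed were 40% of those tested, against 28.2% of all genes tested (13.9% higher and 14.3% lower). Clones of the genotypes were fully separated in 15 of the 30, or 50%, against 47.6% of all genes tested, a share near the background. Differences were large, with a median absolute log2 fold change of 0.59 for the 30 genes and 0.35 for all genes, while the signed medians were -0.17 and -0.00. The higher genes were Wnt5a, Prickle1, Fzd3, Fat1, Intu and Sec24b, and the lower ones were Wnt11, Ror2, Celsr1, Prickle3, Fat4 and Daam2. Leaving out a clone left 1 to 4 genes higher and 3 to 8 lower. The share of all genes passing in these smaller fits is not given here, so these counts do not compare the 34 genes with others. Without knockout clones 1, 2 and 3 in turn, 2, 1 and 4 were higher and 4, 3 and 6 lower. Without het clones 1, 2 and 3 in turn, 3, 2 and 3 were higher and 8, 4 and 5 lower.

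**Figure D1:**
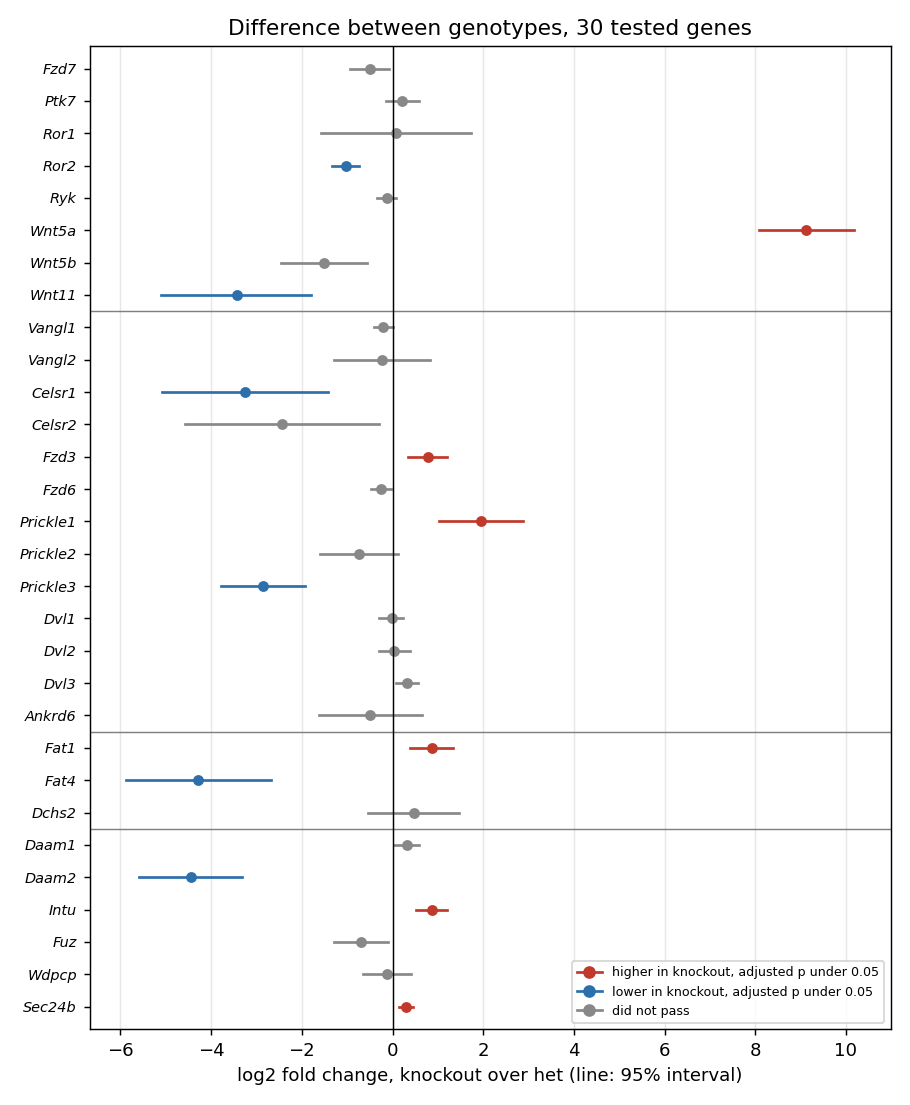
Log2 fold changes, knockout over het, of the 30 tested genes with their 95% intervals, in the order ligands and receptors, core, Fat and Dachsous, effectors. The intervals are a normal approximation and are narrower than the test implies. Wnt5a lies far to the right at 9.13, and Daam2 at -4.45 and Fat4 at -4.28 lie farthest to the left.

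**Figure D2:**
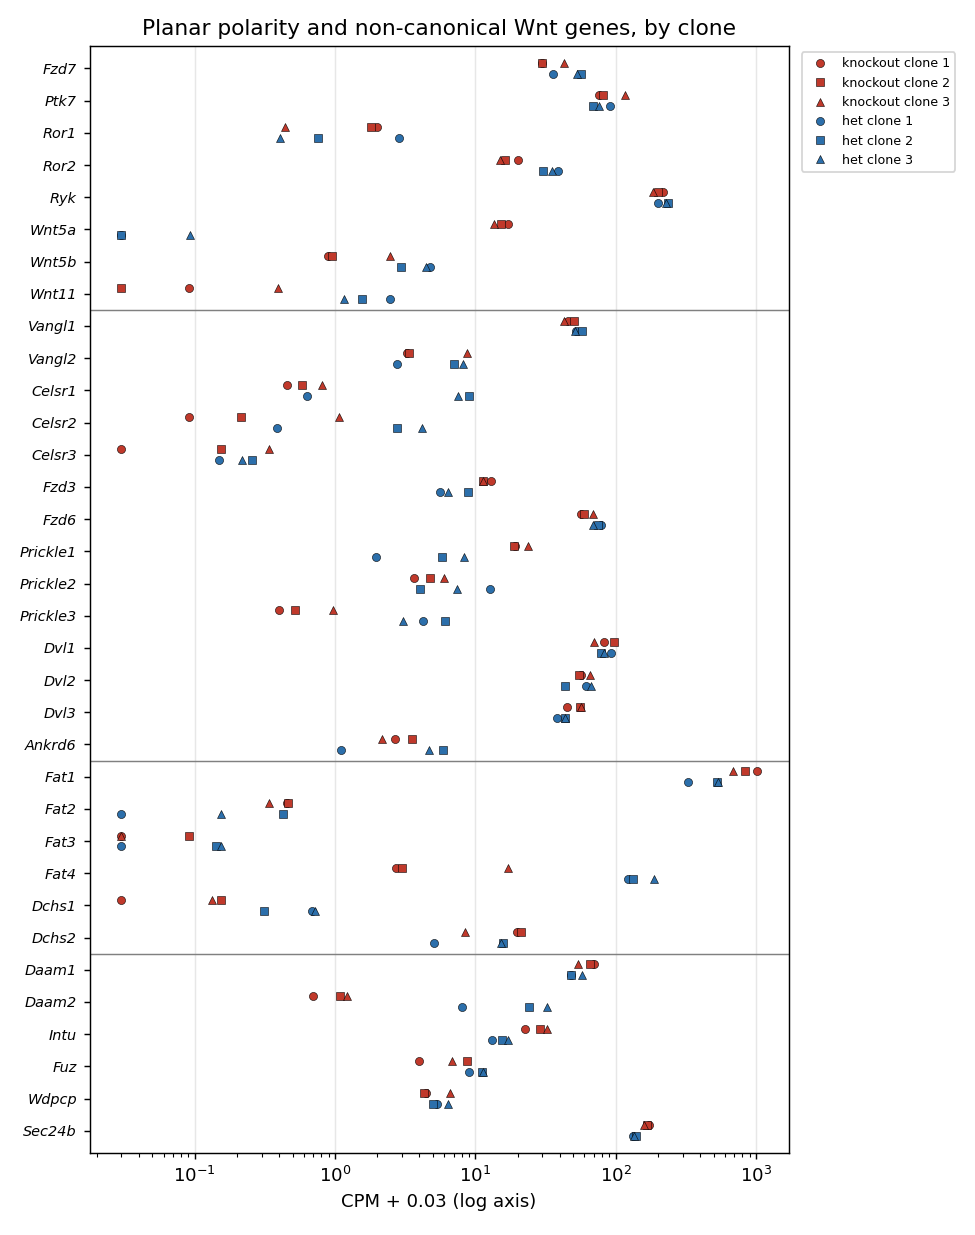
CPM of the 34 genes in each of the 6 clones (log axis after adding 0.03, so that a value of 0 is drawn at 0.03), with knockout clones in red above het clones in blue. Wnt5a lies between 13.5 and 17.2 CPM in the knockout clones and at or near 0 in the het clones, while Fat4 lies between 2.69 and 17 CPM in knockout and between 122 and 188 CPM in het clones.

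Of the Wnt ligands, Wnt5a rose, being detected in every knockout clone and in 1 het clone, and Wnt11 fell. Wnt5a (chr14:28504750-28527448, plus strand, GRCm38), the best known non-canonical ligand, measured 17.2, 15.1 and 13.5 CPM in knockout clones 1, 2 and 3, against 0, 0 and 0.0627 CPM in het clones 1, 2 and 3. The 3 knockout clones lay close together, and the het clones held 1 count in all, where 0 counts allow up to 0.18 CPM in clone 1 and 0.169 CPM in clone 2. In pooled counts (787 in knockout, 1 in het) the ratio was 764-fold, with an exact 95% interval of 137 to 30225 that covers counting error only. The fitted log2 fold change was 9.13 (SE 0.54, adjusted p = 0.000139, edgeR). Because the het level is so low, its size depended on the method, at 8.46 in limma-voom and 11.04 without het clone 3. It was 1.76 on log2(FPKM + 1) and 4.63 on log2(FPKM + 0.1). On these FPKM scales only the transcript Wnt5a-202 of the gene passed, so the FPKM values may cover only part of the gene. Wnt5a passed in all 15 alternatives (adjusted p up to 0.00263). In bulk RNA, a few cells with much of an RNA cannot be told apart from all cells with little of it.

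Wnt11, a ligand known from convergent extension movements in fish and frog embryos, had 8 counts in the knockout clones together and 86 in the het clones. It measured 0.0611, 0 and 0.362 CPM in knockout clones 1, 2 and 3, against 2.45, 1.52 and 1.13 CPM in het clones 1, 2 and 3. Even the highest knockout clone was below the lowest het clone, at a log2 fold change of -3.44 (SE 0.84, adjusted p = 0.0241, edgeR). The adjusted p rose to 0.0957 without knockout clone 1, 0.0677 without knockout clone 2 and 0.0638 without het clone 2 (range over 13 alternatives 0.00369 to 0.0957), and without knockout clone 3 the log2 fold change was -5.49. Wnt5b, the close paralog of Wnt5a, measured 0.855, 0.923 and 2.43 CPM in the knockout clones, against 4.73, 2.92 and 4.45 CPM in the het clones. The genotypes did not overlap, and its log2 fold change of -1.51 (SE 0.48) missed the threshold at an adjusted p of 0.0566 (edgeR; 0.0139 to 0.18 over 15 alternatives). It passed in 5 of these, among them DESeq2 at 0.0203 and edgeR without knockout clone 3 at 0.0139.

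Per kilobase of transcript, the 3 ligands summed to 4.31 ± 0.257 CPM per kb in knockout and 2.72 ± 0.628 CPM per kb in het clones (SD, n = 3 each). Wnt5a made up 89.6, 89.5 and 68% of that sum in knockout clones 1, 2 and 3, against 0, 0 and 0.338% in the het clones. Wnt5b made up 9.58, 10.5 and 26.2% in the knockout clones, against 63.7, 63 and 79.5% in the het clones, and Wnt11 made up the rest. Thus each knockout clone had Wnt5a, and each het clone Wnt5b, as the leading ligand of the 3. Knockout clone 3 kept more of the other ligands than the other knockout clones.

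**Figure D3:**
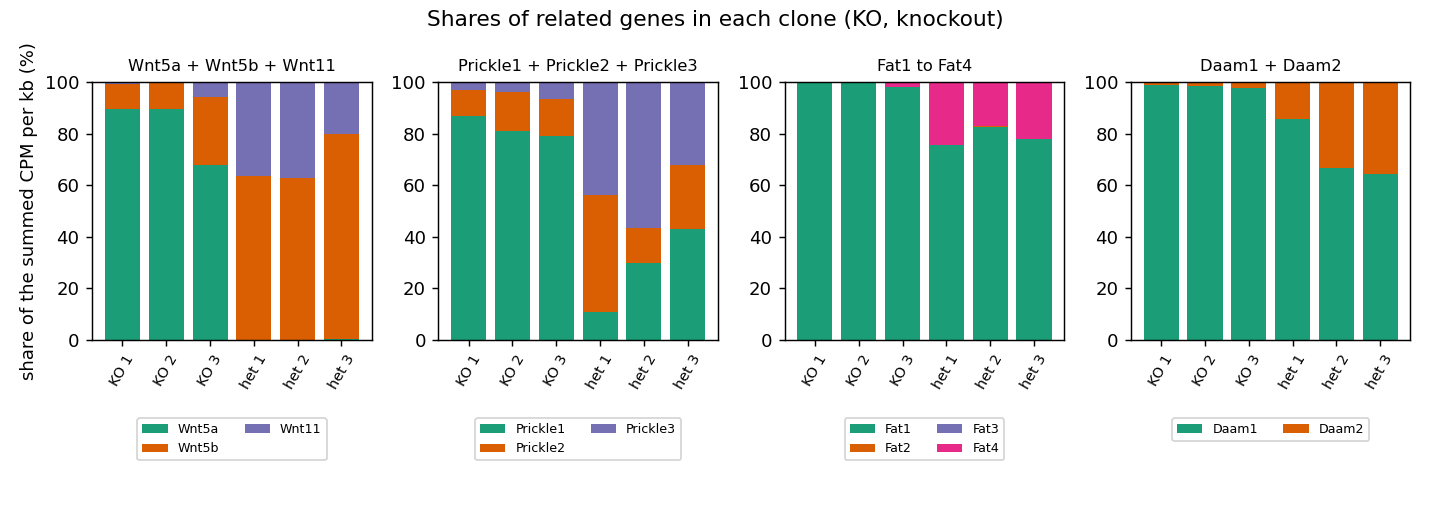
Share of each gene in the summed CPM per kb of its family, for Wnt5a, Wnt5b and Wnt11, the Prickle genes, the Fat genes and the Daam genes, with the 3 knockout clones (KO) left of the 3 het clones. Wnt5a takes 68 to 89.6% of its bar in knockout and at most 0.338% in het clones, and Fat4 takes 0.285 to 1.85% in knockout and 17.2 to 24.2% in het clones.

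Among the receptors, Ror2 fell while the most abundant receptors did not pass. Ror2, a receptor tyrosine kinase that binds Wnt5a, measured 20, 16.3 and 14.9 CPM in knockout clones 1, 2 and 3, against 38.9, 30.5 and 35.4 CPM in the het clones. The genotypes were well apart, at a log2 fold change of -1.03 (SE 0.16, adjusted p = 0.00481, edgeR), and Ror2 passed in all 15 alternatives. Its relative Ror1 was scarce in most clones, at 1.95, 1.79 and 0.414 CPM in the knockout clones and 2.81, 0.73 and 0.376 CPM in the het clones, with full overlap (log2 fold change 0.07, adjusted p = 0.958, edgeR). Ryk, an atypical kinase-like Wnt receptor, measured 218, 202 and 185 CPM in the knockout clones and 199, 236 and 228 CPM in the het clones. The clones overlapped (log2 fold change -0.13, 95% interval -0.35 to 0.08, adjusted p = 0.398, edgeR). At 77.8 ± 7.27 CPM per kb in knockout and 81.3 ± 7.89 CPM per kb in het clones, its mean level was above that of each of the other 33 genes. Ptk7, a pseudokinase co-receptor needed for polarity in mouse, measured 76.6, 81.3 and 116 CPM in the knockout clones and 91.4, 68.8 and 76 CPM in the het clones. Its highest value, in knockout clone 3, lay above all others, but the genotypes overlapped (log2 fold change 0.21, 95% interval -0.15 to 0.58, adjusted p = 0.429, edgeR), and without that clone the difference was -0.00. Fzd7, a frizzled used by both Wnt branches, measured 30, 29.8 and 42.8 CPM in the knockout clones and 35.9, 56.4 and 53.3 CPM in the het clones. Het clone 1 lay inside the knockout range. The log2 fold change was -0.50 (95% interval by normal approximation -0.93 to -0.07, unadjusted p = 0.0555, adjusted p = 0.13, edgeR). The adjusted p was 0.0336 without het clone 1, within a range of 0.0336 to 0.317 over 15 alternatives. Thus of the ligand and receptor genes 1 was higher, 2 were lower and 5 did not pass, so that 37.5% passed against 28.2% of all genes tested.

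Of the 13 core components tested, 2 were higher, 2 lower and 9 did not pass, with both directions inside the Prickle family. The share passing, 30.8%, was near the 28.2% of all genes tested. Prickle1 (chr15:93499114-93595891, minus strand, GRCm38), a cytoplasmic LIM-domain partner of the Vangl proteins, measured 19.1, 19 and 23.6 CPM in knockout clones 1, 2 and 3, against 1.92, 5.73 and 8.27 CPM in het clones 1, 2 and 3. Every knockout clone lay above every het clone, and het clone 1 was lowest. The log2 fold change was 1.95 (SE 0.47, adjusted p = 0.0246, edgeR). It stayed between 1.48 and 2.42 over 15 alternatives, while its adjusted p (0.000221 to 0.0753 over these) was above 0.05 without knockout clones 1, 2 or 3 (0.0723, 0.0753 and 0.0658) or het clone 2 (0.0743). Prickle3, on chromosome X (chrX:7657260-7668186, plus strand), moved the other way, with 0.366, 0.492 and 0.931 CPM in the knockout clones against 4.19, 6.07 and 3.01 CPM in the het clones. Groups did not overlap (log2 fold change -2.86, SE 0.47, adjusted p = 0.00634, edgeR), and Prickle3 passed in all 13 alternatives in which it was tested. Exons of Plp2 on the other strand cover 5.02% of its exon bases, and no source used here says whether counting used the strand. Plp2 itself averaged 257 CPM in knockout and 306 CPM in het clones. Prickle2 measured 3.6 to 5.95 CPM in knockout and 3.99 to 12.6 CPM in het clones and did not pass (adjusted p = 0.241, edgeR).

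Per kilobase, Prickle1 took 87, 81 and 79.2% of the Prickle sum in knockout clones 1, 2 and 3, against 10.6, 29.8 and 43% in het clones 1, 2 and 3. Prickle3 took 3.16, 3.85 and 6.31% in the knockout clones, against 43.9, 56.9 and 32.3% in the het clones. The knockout clones thus had 1 leading Prickle gene, while the leading gene differed among the het clones. Shares come from levels that transcript lengths scale, and much of the Prickle3 estimate lies on transcripts with a retained intron.

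The promoter windows of Prickle1, Fat4 and Daam2 are printed as examples. These genes differed strongly, and their windows end within 11 bases of the start of their most abundant transcript. The same holds for Wnt11, whose window is not printed. Each window is the 250 bases before the start in the RefSeq annotation of GRCm38.p6, written along the gene's strand, and capitals mark CG dinucleotides. Of the 34 genes, 28 had a window. Some of these lay far from the start of the gene's most abundant transcript, such as Fat3 (123823 bases), Fat1 (14761 bases) and Prickle3 (5384 bases).
The Prickle1 window lies on the minus strand at chr15:93595903-93596152.
Prickle1: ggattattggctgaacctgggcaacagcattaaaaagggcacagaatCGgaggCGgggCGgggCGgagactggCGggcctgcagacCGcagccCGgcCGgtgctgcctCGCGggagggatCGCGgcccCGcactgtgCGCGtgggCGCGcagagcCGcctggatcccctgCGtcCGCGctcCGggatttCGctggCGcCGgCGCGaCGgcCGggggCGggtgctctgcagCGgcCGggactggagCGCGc
It holds 34 CG dinucleotides, where the median of 32851 windows of the same length is 6 and 3.53% hold at least as many, and it contains both CCAAT and GGGCGG.
The Fat4 window lies on the plus strand at chr3:38886690-38886939.
Fat4: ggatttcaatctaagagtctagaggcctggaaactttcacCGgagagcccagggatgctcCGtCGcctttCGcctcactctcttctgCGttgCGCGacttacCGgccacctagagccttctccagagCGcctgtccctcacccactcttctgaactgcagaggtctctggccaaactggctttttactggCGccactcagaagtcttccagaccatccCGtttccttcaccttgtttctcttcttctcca
It holds 11 CG dinucleotides (35.6% of windows hold at least as many) and none of the motifs searched.
The Daam2 window lies on the minus strand at chr17:49564338-49564587.
Daam2: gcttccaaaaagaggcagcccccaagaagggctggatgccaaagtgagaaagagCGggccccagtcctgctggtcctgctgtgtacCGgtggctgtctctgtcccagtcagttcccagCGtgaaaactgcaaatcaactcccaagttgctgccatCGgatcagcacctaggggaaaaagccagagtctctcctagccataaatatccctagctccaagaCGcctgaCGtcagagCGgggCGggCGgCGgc
It holds 10 CG dinucleotides (37.8% of windows hold at least as many) and contains GGGCGG.
The motif TATAAA was found in 12.4% of all windows and in 1 of the 28. The motif CCAAT was found in 33.8% of all windows and in 5 of the 28. The motif GGGCGG was found in 32.7% of all windows and in 18 of the 28. Both strands were searched, and none of the motifs contains another. This describes the letters of the windows only.

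The remaining core genes showed 1 further rise and 1 further fall. Fzd3, a frizzled needed for axon guidance and neural tube closure in mouse, measured 12.9, 11.3 and 11.4 CPM in the knockout clones, against 5.57, 8.82 and 6.39 CPM in the het clones. Groups did not overlap (log2 fold change 0.78, SE 0.22, adjusted p = 0.0383, edgeR). The adjusted p was 0.123, 0.109 and 0.06 without knockout clones 1, 2 and 3, 0.0649 and 0.11 without het clones 1 and 3, and 0.052 with library totals (0.0116 to 0.123 over 15 alternatives). Celsr1, an atypical cadherin that bridges neighbouring cells, measured 0.428, 0.554 and 0.776 CPM in the knockout clones, against 0.599, 8.93 and 7.52 CPM in het clones 1, 2 and 3. Het clone 1 lay inside the knockout range, so the fall rests on het clones 2 and 3 (log2 fold change -3.25, SE 0.93, adjusted p = 0.0413, edgeR). Without knockout clones 1, 2 or 3 or het clones 2 or 3 the adjusted p was 0.136, 0.136, 0.0917, 0.109 and 0.0977, with limma-voom 0.219 at a log2 fold change of -2.54, and with no filter 0.0623 (0.000785 to 0.219 over 12 alternatives). Celsr2 had the same layout of clones, at 0.0611, 0.185 and 1.03 CPM in the knockout clones and 0.359, 2.75 and 4.14 CPM in the het clones, and did not pass (log2 fold change -2.43, adjusted p = 0.142, edgeR; 0.0435 without het clone 1, within a range of 0.0435 to 0.331). Celsr3 failed the filter, with at most 0.31 CPM in any clone, and did not pass with no filter (adjusted p = 0.899, edgeR).

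None of the genes for the Vangl membrane proteins, Fzd6 and the Dishevelleds passed. Vangl1 measured 46.1, 50.4 and 43 CPM in knockout clones 1, 2 and 3, against 52.2, 57.5 and 51.5 CPM in the het clones. Groups did not overlap, yet the log2 fold change of -0.21 (95% interval -0.41 to -0.00) did not pass (unadjusted p = 0.085, edgeR). The adjusted p was 0.176 (edgeR; 0.00793 to 0.337 over 15 alternatives). Vangl1 passed at -0.56 and -0.58 on log2(FPKM + 1) and log2(FPKM + 0.1), and at -0.41 with the local chromosome median taken out. FPKM sums give short transcripts more weight, and the short forms Vangl1-203 and Vangl1-204 stood at -2.05 and -1.42. The most abundant forms, Vangl1-202 and Vangl1-201, stood at -0.12 and 0.15 and did not pass (log2 fold changes, edgeR). Vangl2, the paralog best known from the looptail mouse, measured 3.24 to 8.63 CPM in knockout and 2.75 to 8.09 CPM in het clones, spread as widely within as between genotypes (adjusted p = 0.78, edgeR). Fzd6, a frizzled that orients hair follicles in mouse skin, measured 56.4, 59.9 and 69.1 CPM in the knockout clones and 79.1, 74.3 and 68.6 CPM in the het clones. Knockout clone 3 lay just above het clone 3, and the gene did not pass (log2 fold change -0.26, 95% interval -0.48 to -0.04, unadjusted p = 0.0548, edgeR). The adjusted p was 0.129 (edgeR; 0.0487 with the local chromosome median taken out, within a range of 0.0487 to 0.306). Its counts sum 2 gene identifiers that carry equal transcript estimates.

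Dvl1, Dvl2 and Dvl3 encode the Dishevelled proteins, which pass the signal of frizzled receptors inside the cell in both Wnt branches. Dvl1 measured 82, 96.8 and 70.6 CPM in the knockout clones and 92.1, 78.8 and 82.7 CPM in the het clones (log2 fold change -0.02, 95% interval -0.29 to 0.24, adjusted p = 0.911, edgeR). Dvl2 measured 56.6, 54.7 and 65.7 CPM in the knockout clones and 61.6, 43.7 and 66.4 CPM in the het clones (log2 fold change 0.04, 95% interval -0.29 to 0.38, adjusted p = 0.866, edgeR). Both overlapped between genotypes, and 18.3% of the exon bases of Dvl2 are shared with Acadvl on the other strand. Dvl3 measured 44.8, 55.5 and 56.9 CPM in the knockout clones against 38.4, 43.4 and 43.6 CPM in the het clones. It was above the het range in every knockout clone but did not pass (log2 fold change 0.33, 95% interval 0.08 to 0.57, adjusted p = 0.0936, edgeR), except on both FPKM scales at 0.0486 and 0.0496 (range over 15 alternatives 0.0486 to 0.415). Per kilobase, Dvl1 supplied 39 ± 5.11% of the Dishevelled sum in knockout and 42.2 ± 2.8% in het clones, so no single Dishevelled gene stood out (SD, n = 3 each). Ankrd6, the mouse counterpart of fly diego, measured 2.12 to 3.51 CPM in knockout and 1.08 to 5.84 CPM in het clones and did not pass (adjusted p = 0.569, edgeR).

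In the Fat and Dachsous families, Fat1 and Fat4 moved in opposite directions. Fat1 (chr8:44935447-45052257, plus strand, GRCm38), a giant cadherin linked to actin at the cell edge, measured 1014, 841 and 688 CPM in knockout clones 1, 2 and 3, against 326, 531 and 540 CPM in het clones 1, 2 and 3. The knockout clones all lay higher, and het clone 1 was lowest (log2 fold change 0.86, SE 0.24, adjusted p = 0.0361, edgeR). The direction held in all 15 alternatives, but the adjusted p was 0.113 and 0.106 without knockout clones 1 and 2, 0.0503, 0.0807 and 0.0617 without het clones 1, 2 and 3, and 0.0509 with the local chromosome median taken out (range 0.00159 to 0.113). Fat4 (chr3:38886940-39011985, plus strand), the mammalian cadherin closest to fly Fat and the partner of Dchs1, measured 2.69, 2.95 and 17 CPM in the knockout clones, against 122, 134 and 188 CPM in the het clones. Knockout clone 3 kept more Fat4 than the other knockout clones, yet far less than any het clone. The log2 fold change was -4.28 (SE 0.82, adjusted p = 0.0158, edgeR), and in pooled counts Fat4 was 18.2-fold higher in het clones (95% interval 16.5 to 20.1, counting error only). Without knockout clone 3 it was -5.71, on log2(FPKM + 1) -2.83, and without knockout clone 2 the adjusted p was 0.0513 (4.82e-06 to 0.0513 over 15 alternatives).

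Per kilobase, Fat1 averaged 67.6 ± 12 CPM per kb in knockout and 34.9 ± 9.98 CPM per kb in het clones, and Fat4 averaged 0.503 ± 0.499 CPM per kb in knockout and 9.17 ± 2.35 CPM per kb in het clones (SD, n = 3 each). The share of Fat4 in the Fat sum was 0.303, 0.285 and 1.85% in knockout clones 1, 2 and 3, against 24.2, 17.2 and 22.1% in the het clones. Knockout clones thus had Fat1 as nearly their only Fat transcript. Dchs2, a Dachsous cadherin, measured 19.8, 21.2 and 8.43 CPM in the knockout clones and 5.03, 15.6 and 15.2 CPM in the het clones, with overlap (log2 fold change 0.47, 95% interval -0.54 to 1.47, adjusted p = 0.534, edgeR). Dchs1, the ligand of Fat4, failed the filter on low counts, with 0, 0.123 and 0.103 CPM in knockout clones 1, 2 and 3, against 0.658, 0.281 and 0.689 CPM in the het clones. Every knockout clone lay below every het clone, and in pooled counts (4 in knockout, 27 in het) Dchs1 was 6.95-fold higher in het clones (95% interval 2.42 to 27.3, counting error only). With no filter its log2 fold change was -2.69 (SE 0.83) and just missed the threshold, at an adjusted p of 0.053 (edgeR). Fat2, with at most 0.431 CPM in any clone, and Fat3, with at most 0.125 CPM, also failed the filter, and with no filter they did not pass (adjusted p = 0.43 and 0.502, edgeR).

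Among the effectors, the formin Daam2 was nearly lost, while Intu and Sec24b rose. Daam2 (chr17:49456022-49564343, minus strand, GRCm38), which links Dishevelled to actin assembly, measured 0.672, 1.05 and 1.19 CPM in knockout clones 1, 2 and 3, against 7.96, 24 and 32.3 CPM in het clones 1, 2 and 3. The het clones spread 4.06-fold, with clone 1 lowest, and even that clone was well above the knockout clones. The log2 fold change was -4.45 (SE 0.58, adjusted p = 0.00333, edgeR). It was -1.86 on log2(FPKM + 1) and -3.60 on log2(FPKM + 0.1), and Daam2 passed in all 15 alternatives (adjusted p up to 0.0278). Daam1, its paralog, measured 70.4, 65.4 and 54.1 CPM in the knockout clones and 47.8, 47.9 and 57.6 CPM in the het clones. Het clone 3 lay inside the knockout range, and Daam1 did not pass (log2 fold change 0.31, 95% interval 0.04 to 0.58, unadjusted p = 0.0577, adjusted p = 0.133, edgeR). Of the 40 tested genes nearest to it on chromosome 12, 33 had positive log2 fold changes, with a median of 0.40, and with that median taken out Daam1 stood at -0.09. Per kilobase, the Daam2 share of the Daam sum was 0.939, 1.56 and 2.14% in the knockout clones, against 14.2, 33.2 and 35.8% in the het clones.

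Intu, Fuz and Wdpcp encode proteins of the CPLANE complex, which acts in planar polarity and in the assembly of cilia. Intu measured 22.4, 28.7 and 32.2 CPM in the knockout clones, against 13.2, 15.5 and 17.1 CPM in the het clones. Groups did not overlap (log2 fold change 0.86, SE 0.18, adjusted p = 0.0134, edgeR), and the adjusted p was 0.0624 without knockout clone 2 and 0.0505 without het clone 2 (0.00039 to 0.0624 over 15 alternatives). Fuz measured 3.97, 8.74 and 6.82 CPM in the knockout clones and 8.98, 11.1 and 11.4 CPM in the het clones. It did not pass although the groups did not overlap (log2 fold change -0.69, 95% interval -1.28 to -0.09, unadjusted p = 0.0588, adjusted p = 0.135, edgeR). Exons of Ap2a1 on the other strand cover 14.4% of the exon bases of Fuz, and those of D7Bwg0826e 24.1%. Wdpcp measured 4.25 to 6.62 CPM in knockout and 5 to 6.33 CPM in het clones (adjusted p = 0.768, edgeR). Sec24b, a coat protein that packs Vangl2 into vesicles leaving the endoplasmic reticulum, measured 173, 168 and 160 CPM in the knockout clones, against 132, 140 and 135 CPM in the het clones. The rise was small and even across clones (log2 fold change 0.30, SE 0.08, adjusted p = 0.034, edgeR). The adjusted p was 0.113 and 0.13 without knockout clones 1 and 2, 0.0749, 0.0925 and 0.0921 without het clones 1, 2 and 3, and 0.0599 with no filter (0.00554 to 0.13 over 15 alternatives).

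Spread within a genotype was wide for several of these genes. The highest clone exceeded the lowest by more than 2-fold in 8 of the tested genes among knockout clones and in 11 among het clones, with median ratios of 1.47 among knockout and 1.57 among het clones. Het clone 1 was the lowest het clone for 18 of 30 genes, tied at 0 with clone 2 for Wnt5a, and knockout clone 3 was the highest knockout clone for 17. For Celsr1 the het clones spread 14.9-fold. For Celsr2 the knockout clones spread 16.9-fold and the het clones 11.5-fold, at low counts, and for Fat4 the knockout clones spread 6.31-fold. The ratios leave out Wnt11 among knockout and Wnt5a among het clones, where the lowest clone was at 0.

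The other planar polarity and Wnt genes that were listed, 71 in number, gave a mixed picture with more falls than rises. Of these, 57 were tested, 4 were higher, 14 were lower and 39 did not pass, so that 31.6% passed against 28.2% of all genes. Their median log2 fold change was -0.21, and the genotypes were fully separated in 28 of them, or 49.1%, near the 47.6% of all genes tested. Dact1, which binds Dishevelled and restrains it, measured 13.6, 18.7 and 19.9 CPM in the knockout clones, against 0.299, 0.337 and 0.376 CPM in the het clones (log2 fold change 5.66, SE 0.27, adjusted p = 6.71e-05, edgeR). Like Wnt5a, it was low in every het clone and present in every knockout clone. Dact1 lies on chromosome 12, where 33 of its 40 nearest tested genes had positive log2 fold changes (median 0.38). It starts at position 71309884, near Daam1 at 71831078, so the sets of genes nearest to each are not independent. Rhob, also on chromosome 12, rose with 84.3, 85.6 and 54.5 CPM in the knockout clones against 41.6, 33.4 and 42.2 CPM in the het clones (log2 fold change 0.94, adjusted p = 0.0145, edgeR; local median 0.38). Arhgef19, known from frog gastrulation, was nearly lost, with 0.0611, 0.185 and 0.207 CPM in the knockout clones against 27.6, 11.5 and 14.7 CPM in the het clones (log2 fold change -6.80, adjusted p = 0.000578, edgeR). The receptor gene Fzd2 fell by 1.08 (adjusted p = 0.00832, edgeR) and Gpc4, a cell surface heparan sulfate proteoglycan, by 1.21 (adjusted p = 0.00646, edgeR). Smaller falls were those of Camk2g, a calcium-dependent kinase (-0.55, adjusted p = 0.0114), Nfatc3, a calcium-regulated transcription factor (-0.44, adjusted p = 0.0124), and Rab23, a vesicle GTPase (-0.50, adjusted p = 0.013; all edgeR log2 fold changes). The most abundant genes that did not pass were Flna, an actin crosslinker, at 2375 ± 457 CPM in knockout and 2509 ± 364 CPM in het clones, and Cdc42, a small GTPase that organises actin, at 427 ± 63 CPM in knockout and 486 ± 60.1 CPM in het clones (SD, n = 3 each). The higher count was 1 without knockout clones 1 or 2 or het clone 2, and 2 with no filter or with the local chromosome median taken out. The lower count was 5 without knockout clones 1 or 2, 8 without het clone 3 and 8 on both FPKM scales.

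At the level of single transcripts, both main forms of Wnt5a were present in the knockout clones. Of 148 annotated transcripts of the 34 genes, 64 were tested, and 5 were higher, 6 lower and 53 not passing (edgeR on transcripts), which is 17.2% against 7.92% of all transcripts tested. The 11 that passed belong to 8 genes, and no gene had transcripts passing in both directions. Wnt5a-202, which starts at position 28511405, averaged 8.73 ± 1.65 CPM in knockout clones and was at 0 in every het clone, at least 149.8-fold higher against a floor of 3 counts over the het group (adjusted p = 0.00538, edgeR). Wnt5a-201, which starts upstream at 28504750, averaged 6.93 ± 0.707 CPM in knockout and 0.0208 ± 0.036 CPM in het clones (adjusted p = 0.00494, edgeR). Transcripts from both starts were thus estimated to be present, although they share exons. Dvl3-203 rose, with 42 ± 1.88 CPM in knockout and 24.9 ± 4.09 CPM in het clones (log2 fold change 0.75, adjusted p = 0.0366, edgeR), although the gene as a whole did not pass. Intu-201, a minor form, averaged 2.78 ± 1.03 CPM in knockout and 0.681 ± 0.0893 CPM in het clones (adjusted p = 0.0375, edgeR), and Sec24b-203 averaged 37.3 ± 2.4 CPM in knockout and 25.1 ± 0.737 CPM in het clones (adjusted p = 0.0346, edgeR). Falls were seen in Daam2-201 (-4.39, adjusted p = 0.014) and Fat4-201 (-4.23, adjusted p = 0.0313), which carry nearly all of their genes' counts (log2 fold changes, edgeR). For Prickle3, the retained-intron form Prickle3-202 averaged 0.369 ± 0.11 CPM in knockout and 2.25 ± 1 CPM in het clones (adjusted p = 0.0365, edgeR), and the coding form Prickle3-203 was at 0 in every knockout clone and at 1.13 ± 0.425 CPM in het clones (adjusted p = 0.03, edgeR). The other 2 that fell were short forms of Vangl1, Vangl1-203 (-2.05) and Vangl1-204 (-1.42), named after their values were seen. Apart from the Wnt5a transcripts, each of these calls was lost in at least 1 of the smaller fits that left out a clone. In place of the 5 higher and 6 lower transcripts, 2 and 0 passed without knockout clone 1, knockout clone 2 or het clone 2 (edgeR). In these fits 11, 12 and 13 transcripts were lower at an unadjusted p under 0.05 (edgeR), against 13 with all clones. The share of all transcripts at that unadjusted threshold is not given here, so these counts are no support for the lost calls. With all clones, DESeq2 gave 9 lower and limma-voom 3. Higher and lower counts were 2 and 3 without knockout clone 3, 5 and 3 without het clone 1, and 2 and 1 without het clone 3. In the authors' deposited table, which holds 43 transcripts of 21 of the genes, 7 were higher and 6 lower at a false discovery rate of 0.05, taking a positive fold change as higher in knockout as for Wnt5a. Of these 13, 7 also passed here and 6 did not. The 6 were, with their FDR in the authors' deposited table, Prickle1-201 (0.000741), Fat1-201 (0.00699), Wnt5b-202 (0.00834), Fat1-203 (0.0107), Ror2-202 (0.0352) and Sec24b-202 (0.0374). Their adjusted p here was 0.0661, 0.183, 0.107, 0.126, 0.0772 and 0.303 in the same order (edgeR). In the other direction, Sec24b-203 passed here but had an FDR of 0.152 in the authors' deposited table, and the other 3 that passed here, Wnt5a-201, Prickle3-202 and Prickle3-203, are not among those 43.

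**Figure D4:**
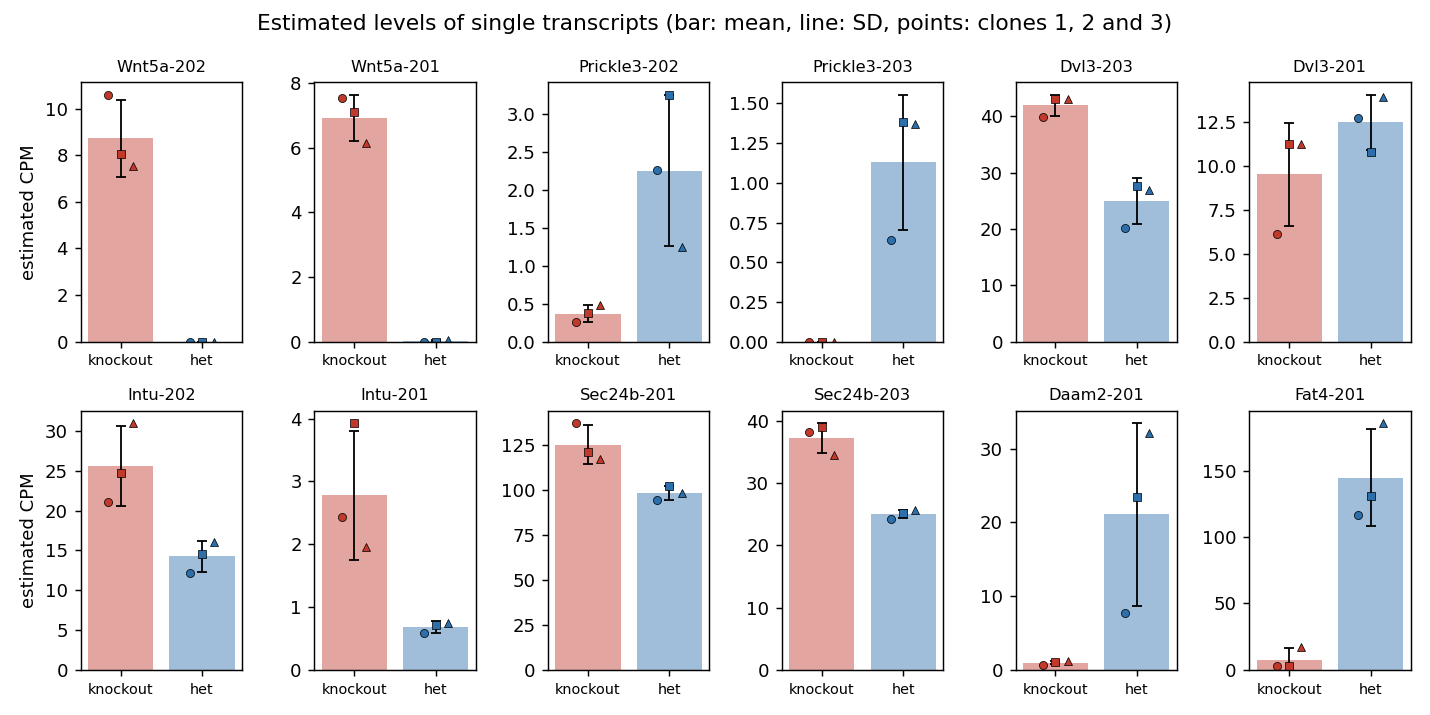
Estimated CPM of 12 transcripts in knockout clones (red, left) and het clones (blue, right), with bars at the mean, lines of 1 SD and a point per clone (circle, square and triangle for clones 1, 2 and 3); each panel has its own axis from 0. The Wnt5a transcripts reach 10.6 and 7.52 CPM in knockout clones and lie at or near 0 in het clones, while Fat4-201 and Daam2-201 show the reverse.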

How the data were processed

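Poly(A) RNA of 6 clones was sequenced after a strand-specific library preparation named in the labels' protocols. Trimmomatic 0.36, kallisto 0.42.5, edgeR and the build GRCm38.p4 appear in the submitters' processing notes. Estimated counts were deposited for 96626 transcripts, and 48% of these values were not whole. They also deposited FPKM values, and a comparison with log2 fold changes, log2 mean CPM, p-values and adjusted p-values per transcript, per the file headers. Here 95213 transcripts got their gene from GENCODE M21 and 260 through the authors' table. The 1153 left out held 0.0174 to 0.0278% of a clone's counts. Estimated counts were summed per gene symbol (31950 genes, 20475 above 0) and rounded to whole numbers. With edgeR 4.0.16 under R 4.3.3, genes were filtered (filterByExpr, count minimum 10, total minimum 15), scaled by TMM, tested by the robust quasi-likelihood F test, two-sided, and adjusted by Benjamini-Hochberg. SEs were derived from the F statistic. The 95% intervals take the SE with a normal distribution, and are therefore narrower than the F test implies. Several exclude 0 although the unadjusted p of the same test is above 0.05. CPM use TMM-scaled library sizes, and CPM per kb divide each transcript by its length. Floors are 3 counts.

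Alternatives were RLE scaling, library totals, no filter, at least 1 CPM in 3 samples, DESeq2 1.42.0, limma-voom (limma 3.58.1), limma on log2(FPKM + 1) and log2(FPKM + 0.1), the median log2 fold change of the 40 nearest tested genes taken out, and leaving out each clone. The procedure was also run on simulated counts drawn independently for each clone. Such counts cannot show the effect of clones that share an origin. The genes and lists were chosen with earlier results of these data known. Genes that passed, and others with at least 20 CPM in a genotype, are given for every clone. Of the other pathway genes, the 8 passing with the smallest adjusted p and the 2 most abundant not passing are named, and of transcripts those passing that rank first or second in their gene among those tested. Clone numbers follow the order of the samples and pair nothing.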

Additional observations from a re-analysis of the deposited data

How the results depend on the processing

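Counts of passing genes were within 1.5 times of those given for the 34 genes under every alternative other than leaving out clones, which gave 1 to 4 higher and 3 to 8 lower genes. Similar counts did not mean the same genes. The FPKM scales gave no value for several genes, among them Celsr1, Prickle3 and Wnt11. On these scales Vangl1 and Wnt5b passed as lower and Dvl3 as higher, unlike in the main fit. For the other pathway genes, leaving out clones gave 1 to 4 higher and 5 to 17 lower. There 2 were higher with no filter and 2 after subtracting the local chromosome median, and 8 were lower on log2(FPKM + 1) and 8 on log2(FPKM + 0.1). For transcripts, leaving out clones gave 2 to 5 higher and 0 to 3 lower (edgeR). No share of all genes or transcripts is given for the fits without a clone. With library totals, no filter and the local median taken out 3, 3 and 3 transcripts were higher, with DESeq2 10 were, and with no filter and limma-voom 3 and 3 were lower. Wnt5a, Ror2, Prickle3 and Daam2 passed in the same direction under every alternative in which they were tested. Genes near no difference changed sign. Vangl2 ranged over -0.86 to 0.05 when clones were left out, at 0.01 without knockout clone 1 and 0.05 without het clone 3. Dvl1 was 0.05 and 0.06 on the 2 FPKM scales, 0.02 with the local median taken out, 0.08 without knockout clone 3 and 0.04 without het clone 1. Dvl2 was -0.05 without knockout clone 3 and -0.14 without het clone 2 (range up to 0.16), and Ptk7 was -0.00 without knockout clone 3 (range up to 0.33). Ror1 was -0.26 and -0.15 without knockout clones 1 and 2 and -0.23 and -0.36 without het clones 2 and 3, and 1.28 without het clone 1. Daam1 was -0.09 with the local median taken out. The cause of these changes was not tested. No paired analysis was possible because the labels give the clones no shared replicate numbers. Depth limits the scarce genes most: Celsr3, Fat2, Fat3 and Dchs1 had at most 27 counts in a genotype and were tested mainly with no filter, where none passed. Dchs1 came closest (log2 fold change -2.69, adjusted p = 0.053, edgeR; 0.0541 to 0.1 in the 4 fits without 1 clone in which it was kept).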

Other observations

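Some of the other pathway genes varied widely among clones of 1 genotype, and are named here after their values were seen. Gpc6, a cell surface heparan sulfate proteoglycan and relative of Gpc4, measured 77.3, 82.4 and 63.3 CPM in knockout clones 1, 2 and 3, against 7.48, 1.18 and 0.188 CPM in het clones 1, 2 and 3. It rose by 4.65 on the log2 scale (SE 1.02, adjusted p = 0.0238, edgeR), while the het clones spread over more than a factor of 10 and het clone 1 was highest. Lrp5, a co-receptor of the canonical branch, measured 125, 133 and 150 CPM in the knockout clones, against 24.2, 71.7 and 67.9 CPM in the het clones, and was higher at an adjusted p of 0.049 (edgeR), with het clone 1 lowest. Kif26b, a kinesin-like protein degraded in response to Wnt5a in cultured mouse cells, measured 0.672, 0.369 and 0.259 CPM in the knockout clones, against 1.98, 2.7 and 9.72 CPM in the het clones (log2 fold change -3.46, SE 0.76, adjusted p = 0.0169, edgeR). Wnt4, a ligand of both branches, measured 2.08, 3.51 and 4.76 CPM in the knockout clones and 22.4, 2.19 and 0.94 CPM in the het clones. Its high value lay in het clone 1 alone, and it did not pass (adjusted p = 0.431, edgeR).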
